A study of Rattus norvegicus with 24 samples.

Results

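Otud1, a deubiquitinase gene of the OTU family, and Ubb, a polyubiquitin gene, were followed in rat tibialis anterior over 30 days of daily resistance training. The members were the transcripts carrying either gene symbol in the deposited transcript table. There were 2 such transcripts, 1 for each gene, among 20027 transcripts of 15273 gene symbols. Both were among the 13452 transcripts kept by a filter on low values, which asked for 1 or more in 3 or more muscles. Both genes were chosen by their values in these same trained and contralateral muscles, so the values of Otud1 and Ubb are given as a description, without a test.

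Male adult Wistar rats carried an implanted pulse generator that stimulated the nerves of the left hindlimb, so that the dorsiflexors contracted against the plantarflexors in 1 session a day. The left tibialis anterior was therefore trained, and the unstimulated right muscle of the same animal served as the contralateral control. Muscles were taken 1 h after the last bout, after 2, 10, 20 or 30 days of training, from 3 animals a day in the sample labels (the series description names 4), which gave 8 groups and 24 muscles. All animals had undergone the surgery, so the contralateral muscle is not that of an unoperated rat. Each labelled replicate is a separate animal, and a trained and a contralateral muscle share a replicate number because they came from that animal.

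Ubiquitin is a small protein that is joined to other proteins singly or in chains, through the successive action of activating (E1), conjugating (E2) and ligating (E3) enzymes. The shape of the chain decides whether the marked protein goes to the proteasome, to autophagy or into a signalling complex. Ubb encodes head-to-tail repeats of ubiquitin, and Rps27a encodes ubiquitin fused to a ribosomal protein. Deubiquitinases cut these precursors into single units, trim or remove chains and so reverse the mark. Otud1 is a deubiquitinase with a catalytic OTU domain, studied mostly for its part in inflammatory and growth factor signalling. Skeletal muscle relies on the ubiquitin system for the turnover of its contractile proteins.

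In the annotation of the deposited values (Rnor_6.0, Ensembl), Otud1-201 is a protein-coding transcript on chr17:86408151-86409519, plus strand. Ubb-201 lies on chr10:48881049-48881882, plus strand, and carries the biotype pseudogene there. RefSeq on the newer assembly GRCr8 lists a protein-coding Ubb between the same neighbouring genes, Cenpv on one side and Trpv2 on the other. Coordinates of the 2 assemblies were not converted into each other. Because ubiquitin coding repeats and their processed copies are almost identical, reads could have been split among them, and the levels of Ubb and Rps27a are uncertain to that extent.

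The promoter of Ubb is shown because the annotations differ on whether this locus holds a working gene. The 250 bases before the first annotated start of Ubb on GRCr8, chr10:47746673-47746922, plus strand, read 5′ to 3′ as follows, with capitals reserved for motif matches.
Ubb: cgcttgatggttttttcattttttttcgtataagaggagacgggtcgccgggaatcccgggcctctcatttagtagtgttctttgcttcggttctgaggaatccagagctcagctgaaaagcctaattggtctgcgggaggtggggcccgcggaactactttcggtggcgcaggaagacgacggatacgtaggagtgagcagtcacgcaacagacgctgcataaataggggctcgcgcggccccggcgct
The motifs searched, on both strands, were TGACGTCA for cyclic AMP response factors, TGACTCA with its reverse complement TGAGTCA for AP-1, GAANNTTC and TTCNNGAA for heat shock factor, CACGTG for E-box factors and TATAAA for the TATA box, and 1 string of 10 letters each for the serum response element and the NF-kB site. None of these letter strings occurred in the window, so that it carries no capitals. Among 33469 RefSeq windows of the same length, the share with a match was 12.9% for TATAAA, 7.23% for GAANNTTC, 7.48% for TTCNNGAA, 5.59% for CACGTG, 4.05% for TGACTCA and 1.59% for TGACGTCA. The serum response string was in 0.0299% of windows and the NF-kB string in 0.0956%. The absence of these letters says nothing about binding of the factors.

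Values are TPM-type, that is, scaled for transcript length and to the same total in every muscle, and were then divided by a median-of-ratios factor for each muscle. Levels of different transcripts can therefore be compared per length, but the table holds no read counts, so the reads behind a single value are not known from it. As bulk muscle tissue was sequenced, a change in the number of cells of a type and a change in RNA per cell cannot be told apart. Muscle fibre markers (8 genes, among them Acta1 and Ckm) summed to between 53381 and 87856 in the trained muscles and between 62466 and 76079 in the contralateral muscles, so that the labelled tissue was plain in every library. Of 276 pairs of libraries, 0 held identical values.

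Otud1 was low in contralateral muscle, at or below about the middle of the tested transcripts, and was among the more abundant transcripts of trained muscle. After 2 days, the trained muscles of replicates 1, 2 and 3 held 186, 184 and 255, against 1.5, 5.29 and 5.59 in their contralateral muscles. The trained to contralateral ratio within an animal was 124, 34.7 and 45.6. All 3 trained muscles lay above all 3 contralateral muscles, as was the case for 15.3% of all tested transcripts. The mean paired difference on the log2(value + 1) scale was 5.46 ± 0.69 (SD, n = 3). This scale understates the change of a transcript that is low in one muscle.

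After 10 days, Otud1 stood at 141, 168 and 68.4 in the trained muscles. The contralateral muscles held 2.85, 4.45 and 6.26. The paired log2 difference averaged 4.47 ± 1.06 (SD, n = 3). The third animal had the lowest trained and the highest contralateral value, and its ratio was 10.9, against 49.5 and 37.8 in the others.

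After 20 days, the trained muscles held 47.4, 124 and 47.0 and the contralateral muscles 3.34, 1.82 and 2.64. The paired log2 difference averaged 4.22 ± 1.09 (SD, n = 3). Replicate 2 stood apart, with a trained level of 124 and a ratio of 68.0, while the other trained muscles were nearly equal to each other. After 30 days, the trained levels were 36.9, 80.4 and 17.8, and the contralateral levels 1.32, 2.22 and 1.69. The paired log2 difference averaged 3.83 ± 0.94 (SD, n = 3), with ratios of 27.9, 36.2 and 10.5.

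Otud1 was higher in the trained muscle of 12 of 12 animals, with ratios from 10.5 to 124. The lowest trained value, 17.8 after 30 days, was above the highest contralateral value, 6.26 after 10 days, so the 12 trained and 12 contralateral muscles did not overlap. Over all tested transcripts, 2.41% were higher in every trained than in every contralateral muscle, and 7.08% were higher in the trained muscle of all 12 animals. Since the contrast chose the gene, nothing is read from these shares. The differences were as large on the values as deposited (5.60, 4.56, 4.16 and 3.67 after 2, 10, 20 and 30 days).

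**Figure D1:**
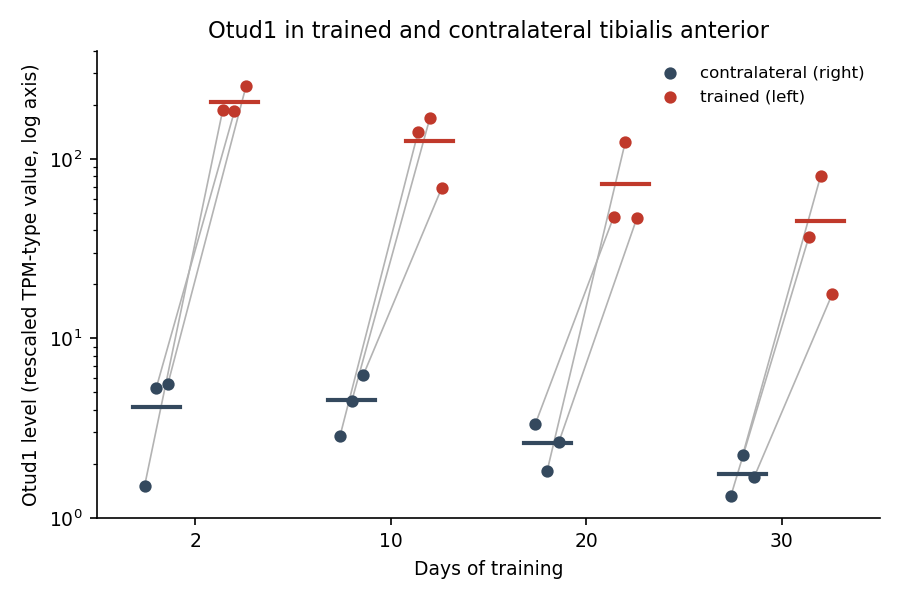
Otud1 level (rescaled TPM-type value, log axis) in each contralateral muscle (dark) and trained muscle (red) against days of training. Lines join the muscles of 1 animal and bars mark group means. All trained muscles sit above the highest contralateral value of 6.26, and trained means step down from 208 after 2 days to 45.0 after 30 days.

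The trained level of Otud1 was lower the longer the training had lasted. Group means were 208 ± 40.4, 126 ± 51.6, 72.8 ± 44.4 and 45.0 ± 32.1 (SD, n = 3) after 2, 10, 20 and 30 days. The mean after 30 days was 21.6% of that after 2 days. The ranges of the 2 day and 10 day trained muscles did not overlap (184 to 255 against 68.4 to 168). The share of all transcripts with such a gap was not counted, so nothing is read from it. The ranges of 10 and 20 days overlapped, as did those of 20 and 30 days. The steps between days compare different animals, and within a day the trained muscles differed by up to 4.53-fold.

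The contralateral level of Otud1 had a mean of 3.25 ± 1.73 (SD, n = 12), a range of 1.32 to 6.26 and a median of 2.74. By day, the means were 4.13 ± 2.28, 4.52 ± 1.71, 2.60 ± 0.76 and 1.75 ± 0.45 (SD, n = 3). In the order of the contralateral means, 10, 2, 20 and 30 days, each group overlapped its neighbour. The mean log2 difference was smaller at each later day, although the contralateral level was also lower after 20 and 30 days. With 0.1 in place of 1 added to each value, the difference averaged 5.81, 4.74, 4.63 and 4.38 after 2, 10, 20 and 30 days. The largest step thus lay between 2 and 10 days. Ratios of single animals overlapped even between 2 days (34.7 to 124) and 30 days (10.5 to 36.2). Changes of the difference between days were not tested for Otud1.

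On the same scale, Otud1 ranked 271 of 13452 by mean level in trained muscle after 2 days, and 420, 690 and 1086 after 10, 20 and 30 days. In contralateral muscle its ranks were 6692, 6418, 8370 and 9754. By the size of the log2 difference it ranked 2, 3, 4 and 4. Above it stood only Ankrd1 after 2 days, Atf3 and Ankrd1 after 10 days, Nr4a3, Atf3 and Ciart after 20 days, and Atf3, Nr4a3 and Hspa1b after 30 days, all genes named after their values were seen. Ankrd1 encodes a stretch-responsive ankyrin repeat protein of the sarcomere, Atf3 and Nr4a3 transcription factors induced by stress or activity, Ciart a repressor of the circadian clock and Hspa1b an inducible chaperone.

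Markers of other cell types also differed between trained and contralateral muscle. Summed macrophage and leukocyte markers (7 genes, among them Cd68 and Mrc1) ranged from 4.38 to 13.2 in contralateral muscle and from 14.2 to 40.0 in trained muscle, without overlap. Summed fibroblast markers (5 genes, among them Col1a1 and Dcn) ranged from 74.6 to 253 in contralateral muscle, from 301 to 495 after 2 days of training, from 518 to 982 after 10 days, from 562 to 614 after 20 days and from 355 to 416 after 30 days. Of the 6 tested macrophage markers, 6, 5, 5 and 6 rose, and of the 5 fibroblast markers, 5, 5, 4 and 4 rose after 2, 10, 20 and 30 days. In trained muscle the fibroblast sum had its highest median, 598, after 20 days, and the macrophage sum, 30.7, after 10 days. The trained minus contralateral log2 difference had its highest median after 2 days for both lists, as for Otud1, with medians of 2.20, 1.79, 1.12 and 0.85 for the fibroblast markers and 1.36, 0.91, 0.88 and 0.95 for the macrophage markers after 2, 10, 20 and 30 days. None of the tested markers of satellite cells (3 genes), Schwann cells (5) or red blood cells (4) passed the adjusted threshold of limma at any day, and at an unadjusted p under 0.05 there were up to 3, 2 and 1 on a day. Of 5 endothelial markers 0, 2, 2 and 0 rose, of 3 adipocyte markers 1, 0, 1 and 1 (Cfd), and of the 8 muscle fibre markers 4, 4, 4 and 2 passed the test in either direction. No marker in the table was at 0 in all 24 muscles. The part of other cells in the level of Otud1 was not tested.

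Within its own family, Otud1 held the largest share in trained muscle after 2 days and a small one in contralateral muscle. Levels of 15 OTU genes, including those below the filter, were summed per muscle with 1 transcript a gene. Otud1 made up 3.57% ± 1.86 (SD, n = 12) of this sum in contralateral muscle. In trained muscle it made up 67.4% ± 3.90, 57.5% ± 10.5, 45.7% ± 13.9 and 33.1% ± 16.4 (SD, n = 3) after 2, 10, 20 and 30 days. The sum of the other family members was 87.5 ± 3.92 (SD, n = 12) in contralateral muscle and lay between 76.7 and 103 in trained muscle. The share ranged from 64.1% to 71.7% after 2 days and from 17.3% to 50.1% after 30 days, so the 3 animals were most alike at the start.

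**Figure D2:**
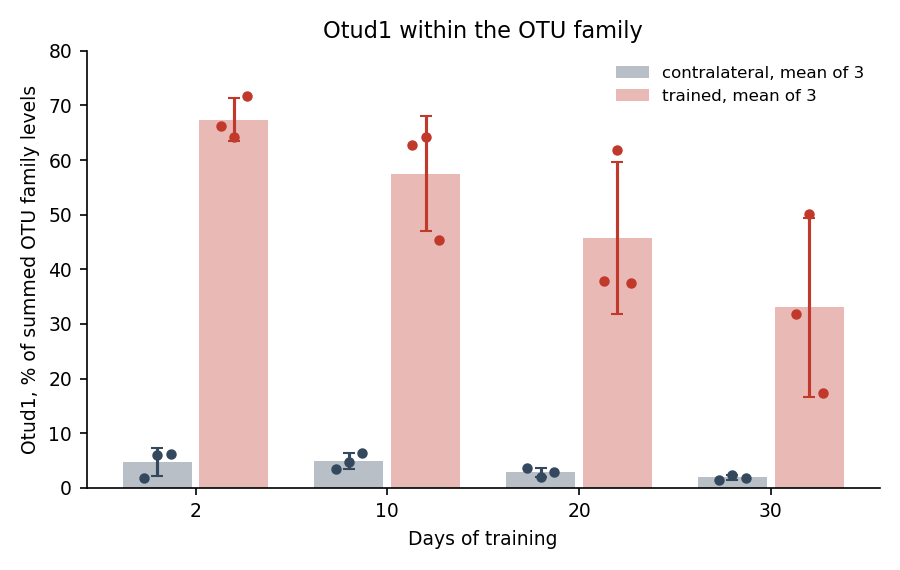
Otud1 as a percentage of the summed level of 15 OTU family genes in each muscle, by days of training, for contralateral (dark) and trained (red) muscles. Bars are means of 3 muscles, error bars the SD and points single muscles. The trained mean stands at 67.4% after 2 days and 33.1% after 30 days, and no contralateral muscle exceeds 6.44%.

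Of the other 15 OTU genes on the list, 14 were in the table and 12 passed the filter. After 2 days, 3 of 12 passed the test, 2 upward and 1 downward, against 15.3% of all tested transcripts in either direction. The tests were those of limma with the animal as a block and Benjamini-Hochberg adjustment over all tested transcripts, here and below. After 10 and 20 days 1 of 12 passed (13.9% and 11.6% of all transcripts), and after 30 days 0 of 12 (7.74%), where 2 of 12 were lower at an unadjusted p under 0.05. The median log2 difference of the 12 genes was 0.01, -0.10, -0.21 and -0.11, beside -0.02, -0.02, -0.02 and -0.01 over all transcripts.

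Otulin, which removes linear ubiquitin chains, rose after 2 and 10 days. Its trained muscles held 12.7, 31.5 and 27.6 after 2 days, against 8.35, 8.85 and 8.43 in the contralateral muscles. The log2 difference was 1.29 ± 0.23 (SE, adjusted p = 0.00369, higher in 3 of 3 animals). After 10 days it was 0.82 ± 0.23 (SE, adjusted p = 0.0356, 3 of 3 animals), from 13.5, 22.8 and 10.0 against 7.15, 9.76 and 6.89. This second call was lost in 7 of 10 alternatives, with adjusted p from 0.0503 to 0.197 there, and the first without replicate 2 (adjusted p = 0.0521). After 20 and 30 days the differences were 0.34 and 0.03, with adjusted p of 0.391 and 0.957.

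Yod1, a deubiquitinase linked to the degradation of proteins from the endoplasmic reticulum, was low throughout. Its trained muscles held 1.80, 1.81 and 1.51 after 2 days, against 0.288, 0.237 and 0.0701. The groups did not overlap, as for 15.3% of all tested transcripts. The log2 difference was 1.18 ± 0.15 (SE, adjusted p = 0.000496, 3 of 3 animals). Yod1 reached the filter value of 1 in trained muscles only, mostly those after 2 days. It was thus tested because of the group where it was high, and nothing is read from this p. After 10, 20 and 30 days the differences of 0.41, 0.10 and 0.13 did not pass the test.

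Otub2, which cuts several chain types, fell after 2 days, from 5.57, 5.97 and 5.78 in contralateral muscle to 3.79, 3.39 and 3.32 in trained muscle, by 0.59 on the log2 scale (SE 0.15, adjusted p = 0.0212, lower in 3 of 3 animals). On the values as deposited this call was lost (adjusted p = 0.0665), as it was without replicate 2 (0.143) or replicate 3 (0.114). Zranb1, a deubiquitinase of atypical chains, fell after 20 days by 0.51 (SE 0.14, adjusted p = 0.0348, 3 of 3 animals), a call lost with any 1 of the 3 animals left out (adjusted p from 0.115 to 0.141). Tnfaip3, the OTU gene best known from inflammation, had a contralateral mean of 2.59 and log2 differences of 0.03, -0.32, -0.35 and -0.54, none of which passed the test. Otud3, Otud4, Otud5, Otud6b, Otud7b, Otub1 and Vcpip1 did not pass at any day, with differences from -0.57 to 0.31.

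**Figure D3:**
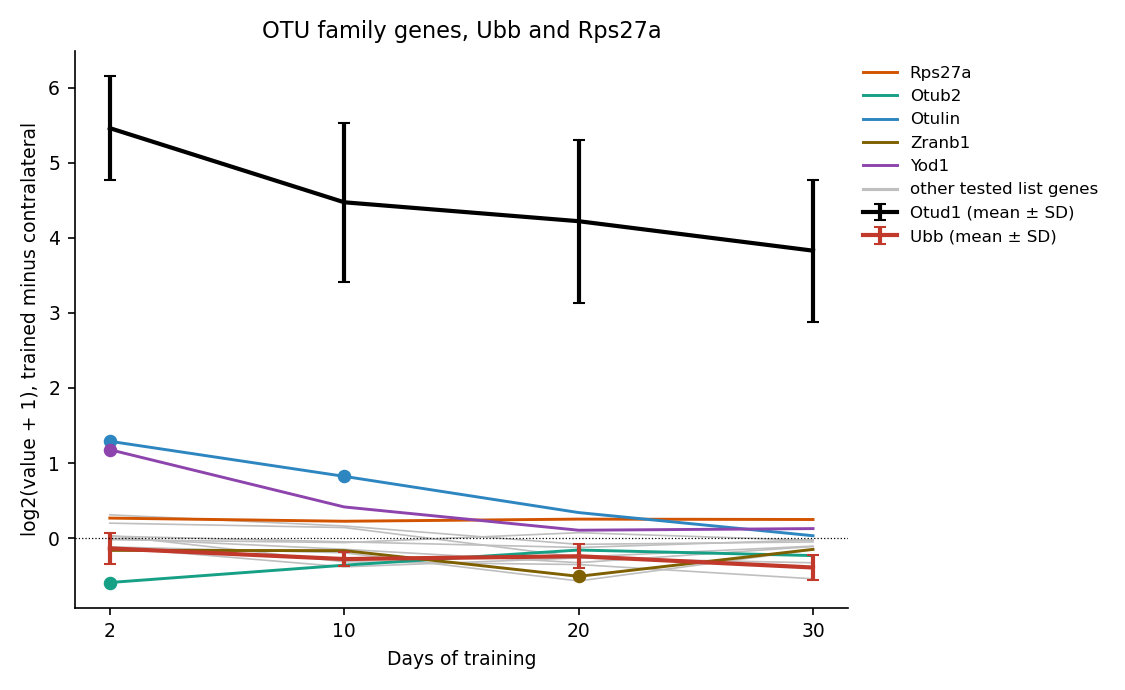
Mean log2(value + 1) difference, trained minus contralateral, against days of training for Otud1 (black) and Ubb (red), with SD over 3 animals, and for the tested OTU family genes and Rps27a. Filled circles on the thin lines mark an adjusted p under 0.05. Otud1 runs from 5.46 to 3.83, while the tested genes lie between -0.59 and 1.29.

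Ubb stood at the opposite end of the scale of levels. It was one of the most abundant transcripts of both muscles, ranking between 83 and 87 of 13452 in contralateral muscle and between 93 and 120 in trained muscle. Its contralateral level was 579 ± 40.5 (SD, n = 12), with a coefficient of variation of 6.98% beside 53.3% for Otud1. By day the contralateral means were 582 ± 63.5, 588 ± 8.51, 547 ± 43.2 and 601 ± 24.1 (SD, n = 3), and groups next to each other by level overlapped. Ordered by mean, the 4 contralateral groups stood above the 4 trained groups, and each group overlapped the next.

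After 2 days, the trained muscles held 581, 633 and 397 of Ubb, against 625, 612 and 509 in the contralateral muscles. The groups overlapped, and the second animal was slightly higher in its trained muscle (ratio 1.04). After 10 days, the trained values were 445, 495 and 514 and the contralateral values 582, 584 and 597. All 3 trained muscles were below all 3 contralateral muscles, as was the case for 15.5% of all tested transcripts.

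After 20 days, the trained muscles held 505, 524 and 370.1 and the contralateral muscles 567, 576 and 497, with overlap. After 30 days, the values were 495, 477 and 406 against 622, 575 and 607, without overlap, as for 13.0% of transcripts. Over all days Ubb was lower in the trained muscle of 11 of 12 animals, with ratios from 0.669 to 1.04. Of all tested transcripts, 10.9% were lower in at least 11 of 12 animals.

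The mean paired log2 difference of Ubb was -0.14 ± 0.21, -0.28 ± 0.09, -0.24 ± 0.16 and -0.39 ± 0.17 (SD, n = 3) after 2, 10, 20 and 30 days. The difference after 2 days was within its SD, was -0.00043 on the values as deposited and turned to 0.06 in the gene-level table. On the values as deposited the later differences were -0.19, -0.33 and -0.51, and Ubb was again lower in 11 of 12 animals. In the gene-level table they were -0.12, -0.41 and -0.66, and Ubb was lower in 9 of 12 animals. The size of this difference thus moved with the scaling, unlike its direction after 10, 20 and 30 days.

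**Figure D4:**
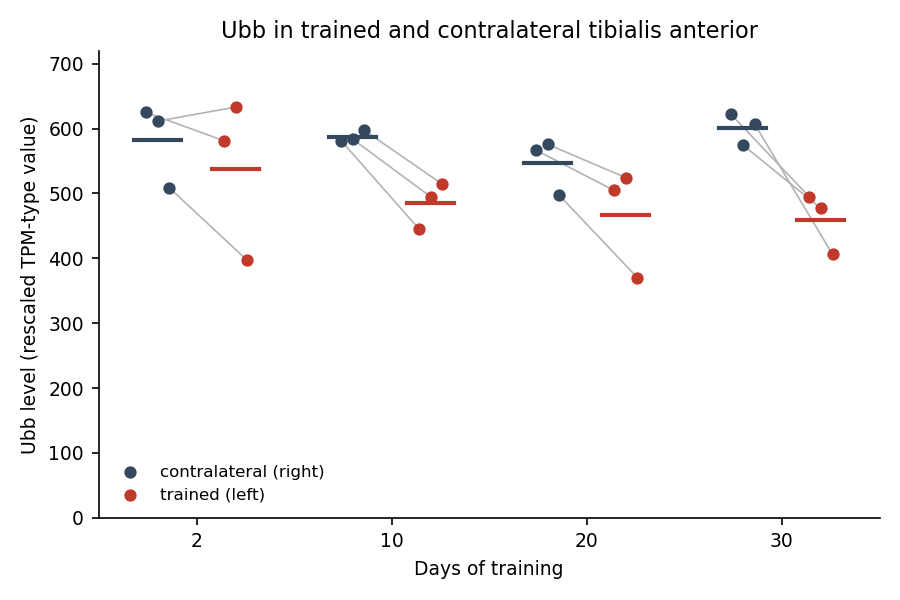
Level of Ubb, as a rescaled TPM-type value, in each contralateral (dark) and trained (red) muscle by days of training. Lines join the muscles of 1 animal and bars are group means. Ubb is lower in the trained muscle of 11 of 12 animals, and the groups are apart after 10 and 30 days.

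Rps27a, which codes for ubiquitin joined to a ribosomal protein, did not pass the test at any day. Its contralateral level was 347 ± 46.04 (SD, n = 12), and its log2 differences were 0.27, 0.22, 0.25 and 0.25 after 2, 10, 20 and 30 days (SE 0.15, adjusted p = 0.278, 0.384, 0.327 and 0.370). The trained muscle was higher in 3, 2, 3 and 2 of 3 animals. The row of Rps27a in the transcript table lies on chr5:138628482-138629027, minus strand, while its gene-level row lies on another chromosome, so its value may come from a copy.

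The wider pathway was counted on lists of 152 other genes, of which 130 were tested. After 2 days 6 rose and 8 fell, 10.8% of the list beside 15.3% of all transcripts. After 10 days 4 rose and 9 fell (10.0% beside 13.9%), after 20 days 1 rose and 8 fell (6.92% beside 11.6%), and after 30 days 0 rose and 6 fell (4.62% beside 7.74%), with 3 higher at an unadjusted p under 0.05. Over all transcripts, 8.65%, 8.82%, 6.87% and 4.72% rose and 6.65%, 5.12%, 4.72% and 3.02% fell at the same days. The share called in either direction, like the share that rose, was below the background at each day. The share that fell was below it after 2 days and above it after 10, 20 and 30 days. These differences were not tested. Of the 37 calls given here for named genes at single days, 11 held with each of the 3 animals of that day left out in turn. These were 3 calls of Tab2, both of Usp28 and of Ube2c, Bap1 after 10 and 20 days, Ddi2 after 20 days and Yod1 after 2 days. Ube2c and Yod1 passed the filter on low values only through trained muscles.

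**Figure D5:**
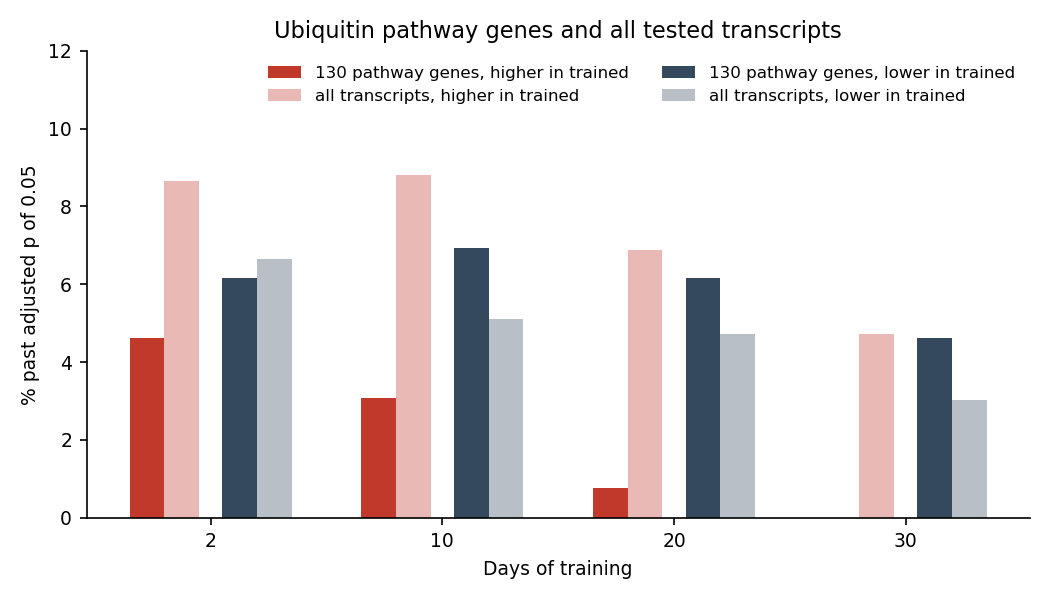
Percentage of the 130 tested ubiquitin pathway genes (full colour) and of all 13452 tested transcripts (pale) past an adjusted p of 0.05, higher (red) or lower (dark) in trained muscle, by days of training. The share of pathway genes that rose goes from 6 of 130 after 2 days to 0 of 130 after 30 days.

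Among deubiquitinases outside the OTU family (67 listed, 58 tested), 4, 6, 4 and 3 passed after 2, 10, 20 and 30 days. Usp28, which stabilises growth-related transcription factors, rose after 2 days by a log2 difference of 1.02 (adjusted p = 0.000696) and after 10 days by 0.80 (adjusted p = 0.00337). Its trained muscles held 15.6, 20.5 and 20.7 after 2 days, against 8.82, 7.60 and 9.94. Bap1, a chromatin deubiquitinase, fell at all 4 days, with differences of -0.48, -0.62, -0.61 and -0.56 (adjusted p from 0.0033 to 0.0114). It was lower in 12 of 12 animals, while 10.9% of all tested transcripts were lower in at least 11 of 12. On the values as deposited its calls after 2 and 10 days were lost (adjusted p = 0.193 and 0.0543). Psmd14, the deubiquitinase of the proteasome lid, rose after 2 days (0.41, adjusted p = 0.0477). This call was lost with a pseudocount of 0.1 (adjusted p = 0.0562) and with any 1 of the 3 animals left out (0.097 to 0.228). Usp24 fell after 2, 10 and 20 days (-0.49, -0.44 and -0.50), with none of the 3 calls kept on the values as deposited (adjusted p from 0.0539 to 0.214). Usp16 fell after 10 days (-0.53), Usp21 after 30 days (-0.46) and Stambpl1, at a contralateral mean of 0.421, rose after 20 days (0.58). These 3 calls were each lost on the values as deposited (adjusted p = 0.1001, 0.0747 and 0.0574) and with any 1 of the 3 animals left out (adjusted p from 0.0746 to 0.219). Stambpl1 passed the filter on low values only through trained muscles.

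Of 34 E1 and E2 enzymes, 27 were tested and 4, 5, 2 and 1 passed. Ube2d1, an abundant conjugating enzyme used by many ligases, fell at all 4 days, by differences of -0.65, -0.67, -0.55 and -0.56. Its contralateral mean was 140.5 ± 12.4 (SD, n = 12). It was lower in 12 of 12 animals (10.9% of all tested transcripts were lower in at least 11 of 12), although each call was lost without at least 1 of the animals. Ube2q2 fell after 2, 10 and 20 days (-0.52, -0.57 and -0.56), calls that were all lost on the values as deposited (adjusted p from 0.0644 to 0.231), and Ube2e3 after 10 days (-0.61). The call of Ube2e3 was lost without replicate 1 (adjusted p = 0.088). Ube2z rose after 10 days (0.50), a call lost with any 1 of the 3 animals left out (adjusted p from 0.0508 to 0.125). Ube2c, the conjugating enzyme of mitosis, was listed at 0 in all 3 contralateral muscles after 2 days and at 0.542, 2.87 and 1.70 in the trained muscles. It passed the test after 2 and 10 days, and as it was at or near 0 in the controls no fold is given. Ube2c passed the filter on low values only through trained muscles, so nothing is read from these calls.

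Among 18 genes whose proteins bind or shuttle ubiquitin chains (16 tested), 2, 1, 2 and 2 passed. Sqstm1, an autophagy receptor, rose after 2 days, with trained values of 248, 362 and 309 against 221, 241 and 198 (log2 difference 0.46, adjusted p = 0.0279). This call was lost without replicate 2 (adjusted p = 0.191) or replicate 3 (0.18). Tab2, a chain-binding adaptor of the Tak1 kinase, fell at all 4 days by differences of -0.62, -0.75, -0.89 and -0.77. Its call after 2 days was lost on the values as deposited (adjusted p = 0.0787). Tab2 was lower in 12 of 12 animals, while 10.9% of all tested transcripts were lower in at least 11 of 12. Ddi2, a shuttle factor and protease, fell after 20 and 30 days (-0.76 and -0.52), calls that were lost when its transcripts were summed (adjusted p = 0.0578 and 0.115). Of the genes of ubiquitin-like modifiers (17 listed, 16 tested), Sae1, a subunit of the SUMO-activating enzyme, passed after 2 days (-0.43) and none later, when 2, 1 and 3 had an unadjusted p under 0.05. The call of Sae1 was lost on the values as deposited (adjusted p = 0.155).

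Of 5 genes whose proteins have been described as substrates of Otud1, Smad7, Yap1, Keap1, Irf3 and Ripk1, 0 passed the limma test at any of the 4 days, and at an unadjusted p under 0.05 there were 1, 1, 0 and 0, both higher in trained muscle. Their log2 differences lay between -0.37 and 0.42. Otud1 acts on proteins, and these transcript levels carry no information on the ubiquitin state of its substrates.

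The genes whose pattern over the 24 muscles was most like that of Otud1 were Xirp1, Atf3, Rcan1, Lmod2, Egr1 and Tnfrsf12a, out of 9123 genes searched. Their Pearson r of log2(value + 1) was 0.98, 0.98, 0.98, 0.98, 0.98 and 0.97 over 24 muscles. These points share the split into trained and contralateral muscles, and pairs share an animal. Over the 12 trained muscles alone r was 0.94 for Xirp1, 0.88 for Atf3, 0.87 for Rcan1, 0.91 for Lmod2, 0.85 for Egr1 and 0.85 for Tnfrsf12a, and over the 12 contralateral muscles it lay between 0.36 and 0.80. Xirp1 and Lmod2 encode actin-binding proteins of the sarcomere, Rcan1 a regulator of calcineurin, Atf3 and Egr1 transcription factors and Tnfrsf12a a receptor of the tumour necrosis factor family.

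All 6 were higher in the trained muscle of 12 of 12 animals, as were 7.08% of all tested transcripts. They were chosen for likeness to Otud1 over the same muscles, so this direction is not a separate result. Their differences were of other sizes than that of Otud1. Atf3 differed by 5.26 after 2 days and 5.02 after 30 days on the log2 scale, and Rcan1 by 2.59 and 2.13. Xirp1 went from 4.27 to 3.24, Egr1 from 4.59 to 3.78 and Tnfrsf12a from 3.58 to 2.60, while Otud1 went from 5.46 to 3.83.

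For Ubb, the most similar genes were Kcnj11, Tcf25, Mvb12b, Flywch1, Phc1 and Cops7a, with r from 0.78 to 0.83 over 24 muscles and from 0.58 to 0.77 over the 12 trained muscles. Kcnj11, the pore subunit of the ATP-sensitive potassium channel, was lower in the trained muscle of 12 of 12 animals, with log2 differences of -0.56, -0.72, -0.65 and -0.82. Cops7a, a subunit of the signalosome that controls a family of ubiquitin ligases, differed by -0.33, -0.41, -0.37 and -0.42. For Tcf25 the differences were -0.03, -0.13, -0.12 and -0.25, smaller than those of Ubb. As these genes were chosen for likeness to Ubb over the same muscles, their direction is not a separate result.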

How the data were processed

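The authors trimmed paired-end reads of poly-A selected, strand-specific libraries, used STAR within Partek Flow for alignment to Rnor_6.0 (rn6) and assigned the reads to transcripts of the Ensembl annotation. The deposited transcript table holds TPM-type values that add up to the same total in all 24 samples, so the number of reads behind a value, and with it its counting precision, cannot be given from the table; of the read depth the authors state a minimum that every sample passed. The authors also deposited a gene-level table of 4635 genes in units of signal, scaled per sample, and a table of their own comparisons (p-values, FDR, ratios), which was not used. The authors name DESeq2 median-of-ratios normalization; here the transcript values were divided by such factors (0.778 to 1.14).

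The members and gene lists were chosen with earlier results of these data known, and some listed genes are not reported here. For 13452 transcripts (1 or more in 3 or more samples), a limma fit (version 3.58.1, R 4.3.3) was made to log2(value + 1), with animal as a block and 1 trained term a day; adjusted p under 0.05 was the threshold. Pairing rests on the animal and limb in the labels. Deviations from group means correlated between muscles of an animal with a median r of 0.133 (range 0.0174 to 0.270, above 0.1 in 7 of 12 pairs) and between animals with -0.00319. Named were both members, all other tested ubiquitin coding and OTU genes, of every other ubiquitin list up to 2 rising and 2 falling genes a day with the largest change past the threshold, and the 6 genes most like each member. On simulated data with 200 transcripts changed alike on all 4 days, in 10 draws, the fit recovered 10.2%, 73.8% and 95.9% of changes of log2 0.5, 1 and 2, and 5.28% of calls were false. Fewer transcripts were changed there than were called in the real data (1041 to 2058 a day), so these rates need not hold for the real fits. Alternatives were the values as deposited, a pseudocount of 0.1, no filter, fits without the block, an intensity trend, transcripts summed per gene, the gene-level table and leaving out each animal; those for contralateral levels and for the 30 against 2 day contrast were chosen after seeing the data. Python 3.11.15 with pandas 2.3.3, numpy 2.4.6 and matplotlib 3.10.9 served for tables and plots. Promoter windows are from RefSeq (GRCr8), where 1 member, Ubb, matched.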

Additional observations from a re-analysis of the deposited data

Results flagged for a closer look

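For 1 ubiquitin pathway gene, Yod1, the response of trained against contralateral muscle differed between 2 and 30 days by a test of the difference itself (limma with animal as a block, adjusted over all tested transcripts). The contrast was -1.05 (adjusted p = 0.0476), from a difference of 1.18 after 2 days to 0.13 after 30 days, and it lost its call in 10 of 13 alternatives, with adjusted p from 0.0518 to 0.168 there. Yod1 passed the filter on low values only through trained muscles, mostly those after 2 days, so nothing is read from this call. No group had enough samples to be searched for outlying muscles.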

How the results depend on the processing

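The Otud1 difference was positive in all alternatives, from 3.29 to 5.81 on the log2 scale over the 4 days. Ubb stayed negative after 10, 20 and 30 days and turned to 0.0626 after 2 days in the gene-level table, where it was -0.12, -0.41 and -0.66 later. Without the replicate block and with 12 contralateral muscles pooled, 3063 transcripts passed after 10 days (1876 with the animal as a block) and 2156 after 30 days (1041), and 25, 27, 19 and 14 pathway genes after 2, 10, 20 and 30 days in place of 14, 13, 9 and 6. Time-matched groups without the pairing left these counts within 1.5 times. On the values as deposited 562 transcripts passed after 30 days, and 7, 8 and 5 pathway genes after 2, 10 and 20 days. A pseudocount of 0.1 gave 3 pathway genes after 30 days, and summed transcripts 18 after 20 days. Leaving out 1 animal gave 667 to 1979, 899 to 1166, 678 to 954 and 366 to 573 transcripts after 2, 10, 20 and 30 days. The pathway genes then numbered 3 to 14, 6 to 7, 3 to 5 and 1 to 3, with fewer animals in each of these fits. The lowest counts for all transcripts came without replicate 2 after 2 and 30 days and without replicate 1 after 10 and 20 days. The contrast of 30 against 2 days passed for 135 transcripts, and for 44 with a pseudocount of 0.1, 1533 with pooled controls, 235 with a trend, 314 with summed transcripts and 17 to 414 with 1 animal left out. Of the pathway genes it passed for 1 (Yod1), and for 0 on the values as deposited, with a pseudocount of 0.1, without a filter, with time-matched groups and with a trend, 2 with summed transcripts, 11 with pooled controls and 0 to 4 with 1 animal left out. The cause of these moves was not tested. Of the alternatives for single named genes, 1041 kept direction and side of the threshold, 100 lost it and 32 gained it. These numbers include genes and days without a call. Of the 37 calls for named genes at single days, 9 were kept in all alternatives. The tables hold no read counts per value, and 3 animals a day limit what can be called.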
